A study of Mus musculus with 3 samples.

Results

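Differentiated neural cultures that lacked CBP were compared directly with cultures that lacked p300, without passing through the control. All nuclei deposited for the genotype CBPf/f were set against all nuclei deposited for the genotype p300f/f. These are 3017 CBP-ablated and 4648 p300-ablated nuclei, together 7665 of the 12549 nuclei of the series, and the remaining nuclei belong to the control library, whose levels are given only beside a few genes. The UMIs (unique molecular identifiers, each standing for 1 captured RNA molecule) of every gene were summed over the nuclei of a library and scaled to a library total of 1000000 (CPM). Each difference is given as the log2 ratio of the CBP-ablated over the p300-ablated level, so that a positive value means a higher level without CBP and a negative value a higher level without p300.

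The study grew neurospheres, floating spheres of neural stem cells and their progeny, from the subventricular zone of newborn C57BL/6 mice carrying floxed Crebbp or floxed Ep300 alleles. According to its methods, a lentivirus delivered Cre fused to mCherry to the cells, red cells were sorted and grown into clonal secondary spheres, and these were differentiated on an adherent matrix after withdrawal of mitogens. Each library is a pool of about 15 cultures harvested at 15 days in vitro, its nuclei were sorted on red fluorescence, and 16000 nuclei were loaded. Tamoxifen is given as a treatment in the labels of both libraries although the methods use the virus, and the genotype in the labels decided the side of each library. Both ablated cultures therefore shared the virus, the recombinase, the culture protocol and the harvest day, and differed in the floxed line. The lines are separate mouse colonies, pups of each were used to start separate cultures, and a difference between lines, litters or sexes of the pups cannot be told apart from the difference between the ablated genes. There was 1 library per genotype, so no difference below has a replicate check, no test was made, and the 95% intervals cover counting error only.

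CBP (gene Crebbp) and p300 (gene Ep300) are closely related lysine acetyltransferases that are recruited by transcription factors, acetylate histones at enhancers and promoters, and bridge bound factors to the transcription machinery. CBP was named for its binding to CREB, the factor through which cyclic AMP and calcium switch on immediate early genes. In the postnatal subventricular zone, neural stem cells give rise to neuroblasts, astrocytes and oligodendrocyte precursors (OPCs), and the last of these pass through a committed, premyelinating stage before they become myelin-forming oligodendrocytes.

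The counts summed to 12748336 UMIs in the CBP-ablated and 18876682 UMIs in the p300-ablated library, with a median of 4016 and 3902.5 UMIs and of 1807 and 1730.5 genes per nucleus. A count of 0 allows up to 3 UMIs, which stand for 0.235 CPM without CBP and 0.159 CPM without p300. The nuclear RNA Malat1 took 10.5% of UMIs without CBP and 9.16% without p300, and mitochondrially encoded RNA took 0.00806% and 0.00690%. The libraries shared 1 cell barcode.

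The targeted genes were measured first. Crebbp had 4711 UMIs (370 CPM) in the CBP-ablated and 6887 UMIs (365 CPM) in the p300-ablated library, a log2 ratio of 0.02 (95% interval −0.04 to 0.07). Ep300 had 1734 UMIs (136 CPM) and 2177 UMIs (115 CPM), a log2 ratio of 0.24 (0.15 to 0.33). Each floxed allele loses a single exon, and the sums cover exons and introns of the whole gene, so these levels do not check the labels. In the 5 Mb on either side of Crebbp, 2 of 37 ranked genes (5.41%) differed 2-fold or more, and in the same window around Ep300 7 of 117 (5.98%) did, against 5.57% of all ranked genes. The flanks of the floxed loci were therefore near the background.

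Most genes had nearly the same level in both libraries. Of 11956 genes with 100 or more UMIs in both libraries together, 78.8% had a log2 ratio within 0.5 of 0, and the median over all of them was 0.10. In the CBP-ablated library 359 genes were higher by 2-fold or more, 3.0% of those ranked, and 307 were lower by 2-fold or more, 2.57% of those ranked. A 4-fold difference was reached by 35 genes in the first direction and by 24 in the other, and 7 genes passed 8-fold. The genes next to the limit lay at 1.0007 inside it and 0.999 outside it. A sum over a whole library cannot tell fewer nuclei of a type from less RNA per nucleus, and the values within classes of nuclei, given further on, bear on this. When the classes were given equal weight in both libraries, 166 genes were past 2-fold in each direction.

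**Figure D1:**
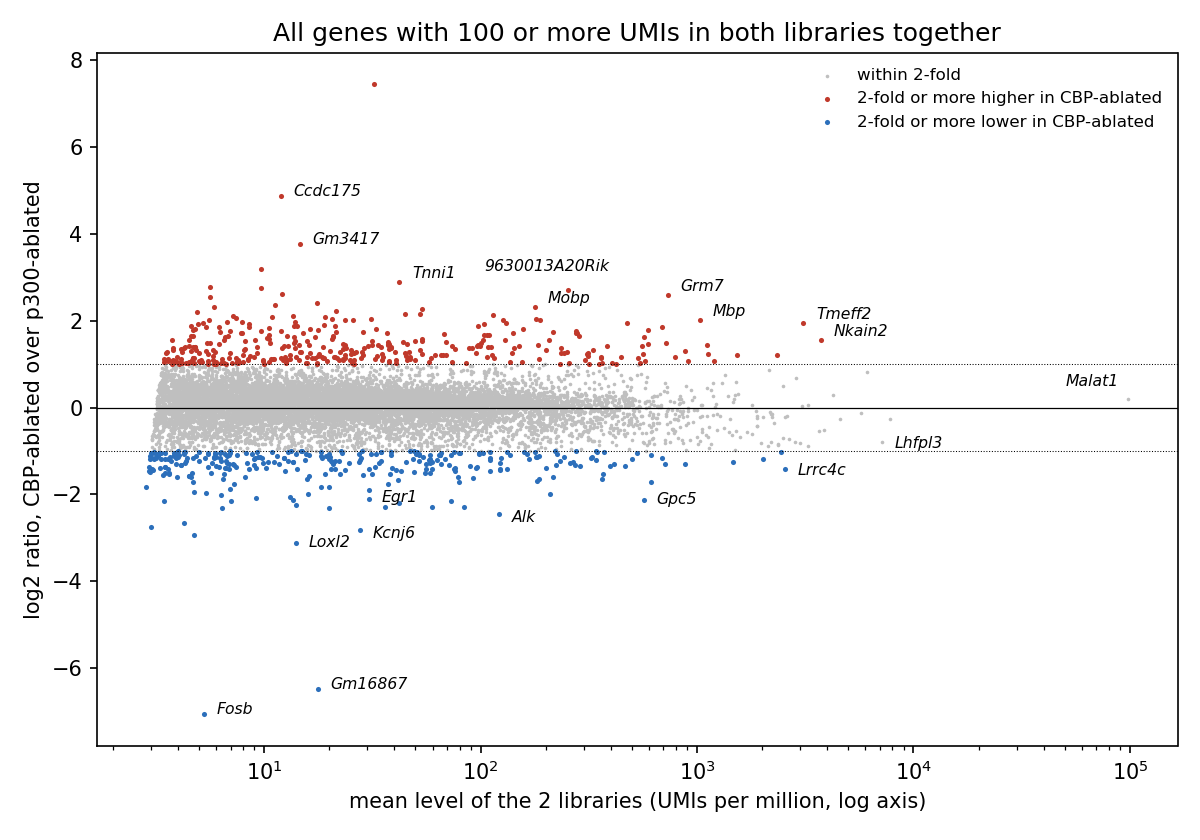
Log2 ratio of CBP-ablated over p300-ablated against the mean level of the 2 libraries in CPM (log axis), 1 point per gene with 100 or more UMIs in both libraries together. Most of the 11956 points lie between the dotted lines at 2-fold, and Ccdc175 and Gm3417 toward the top and Fosb, Gm16867 and Loxl2 at the bottom lie far outside them.

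Among the largest differences were genes nearly absent from one library. The predicted gene Gm16867 on chromosome 14 (chr14:69363504-69503362, GRCm38, minus strand) had 5 UMIs (0.392 CPM) in the CBP-ablated, 664 UMIs (35.2 CPM) in the p300-ablated and 374 UMIs (22.9 CPM) in the control library, a log2 ratio of −6.49 (−8.11 to −5.26). It was lower without CBP in all 5 classes compared. Nearby Loxl2 (chr14:69609068-69695834, plus strand), a lysyl oxidase that crosslinks collagen, had 37 against 474 UMIs, 2.90 against 25.1 CPM, a log2 ratio of −3.11 (−3.64 to −2.63). R3hcc1 and Chmp7, just beyond Loxl2, had log2 ratios of −0.13 and 0.30, so the difference did not extend to them.

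Ccdc175, a coiled-coil gene at chr12:72101300-72185029 (minus strand), had 294 UMIs (23.1 CPM) without CBP and 15 UMIs (0.795 CPM) without p300, a log2 ratio of 4.86 (4.11 to 5.71), and its UMIs came mostly from 2 classes, glial progenitor-like (105 against 1) and RGC/PSC-like nuclei (101 against 7). On chromosome 17 the predicted gene Gm3417 had 347 against 38 UMIs, a log2 ratio of 3.76 (3.27 to 4.28). Further along that chromosome Tmem181a, a membrane protein gene, had 157 against 68.0 CPM (log2 ratio 1.21) and the dynein light chain genes Dynlt1a, Dynlt1b and Dynlt1c had log2 ratios of 1.44, 2.75 and 0.92. The Dynlt1 copies are nearly identical and Dynlt1a overlaps Tmem181a on the opposite strand, so how their reads were divided is uncertain.

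Among genes measured in depth in both libraries, the CBP-ablated library was higher at genes of several kinds. Tnni1, a troponin subunit gene, had 74.2 against 10.1 CPM (log2 ratio 2.88, 2.66 to 3.11). The noncoding 9630013A20Rik had 440 against 67.0 CPM (2.72, 2.63 to 2.80). Grm7, which encodes a presynaptic metabotropic glutamate receptor, had 1259 against 210 CPM (2.59, 2.54 to 2.64). Ddc, the decarboxylase that completes dopamine and serotonin synthesis, had 20.9 against 3.39 CPM (2.62), and Col9a1, a chain of collagen IX, had 29.7 against 5.56 CPM (2.41). Of these Grm7 and 9630013A20Rik were also past 2-fold within most classes of nuclei, 6 and 7 of 8, while Tnni1 was past it in 2 of 3 and Ddc in 1 of 2. The classes of Grm7 included microglia-like nuclei (36 against 5 UMIs), so its count is not read as expression in each class.

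Below Gm16867, Loxl2 and Fosb, which is described with the immediate early genes, the genes with the smallest ratios included several membrane proteins of neurons and precursors. Kcnj6, a G protein-gated potassium channel, had 6.90 against 48.6 CPM (log2 ratio −2.82, −3.15 to −2.50). Alk, a receptor tyrosine kinase of the developing nervous system, had 37.8 against 206 CPM (−2.45, −2.59 to −2.31). Ndst3, which sulfates heparan sulfate chains, had 28.6 against 139 CPM (−2.28, −2.44 to −2.12). The muscarinic receptor gene Chrm2 (4.86 against 23.1 CPM), Cacng5, of the AMPA receptor auxiliary subunits (1.10 against 8.42 CPM), and the Nogo receptor partner Lingo1 (6.75 against 33.3 CPM) had log2 ratios of −2.25, −2.94 and −2.30. Control levels lay between the ablated levels for Kcnj6 (30.8 CPM), Alk (93.4 CPM) and Ndst3 (68.5 CPM).

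Ordered by the difference in CPM, the leading genes were long, abundant nuclear transcripts. Nkain2, a partner of the sodium pump, had 5608 CPM without CBP and 1910 CPM without p300 (log2 ratio 1.55), and Tmeff2, a transmembrane protein gene, had 4922 against 1287 CPM (1.94). In the other direction Lhfpl3, an OPC marker, had 5244 against 9071 CPM (−0.79), and Lrrc4c, a postsynaptic adhesion gene, had 1392 against 3694 CPM (−1.41). Malat1 had the largest CPM difference, 105237 against 91646 CPM, at a log2 ratio of only 0.20.

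Genes of the oligodendrocyte lineage beyond the precursor stage formed the clearest group that was higher in the CBP-ablated library. Of 13 genes listed as lineage transcription factors, 7 were higher by 2-fold or more and none lower. Their median log2 ratio was 1.01 against 0.10 for all genes, of which 3.0% were 2-fold higher and 2.57% 2-fold lower. Myrf, the factor that switches on myelin genes, had 73.0 against 16.3 CPM (log2 ratio 2.16, 1.97 to 2.35). Zfp536 had 858 against 281 CPM (1.61) and St18 1053 against 378 CPM (1.48). Rnf220, on the list although it encodes a ubiquitin ligase, had 1077 against 299 CPM (1.85). The factors already active in precursors had smaller ratios, 0.31 for Sox10, 0.02 for Olig1 and −0.38 for Olig2. The list is therefore divided by stage, although Olig1 and Olig2 had only 346 to 1233 UMIs in a library.

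Of 12 premyelinating genes, 5 were 2-fold or more higher and none lower (median 0.86). Over all ranked genes 3.0% were higher and 2.57% lower by 2-fold. Enpp6, a choline phosphodiesterase of newly formed oligodendrocytes, had 164 against 43.4 CPM (log2 ratio 1.91, 1.80 to 2.03), and Bcas1, which marks cells starting to myelinate, had 1572 against 667 CPM (1.24, 1.21 to 1.27). Bmp4 had 31.6 against 10.1 CPM (1.64). Of 28 mature myelin genes 26 were ranked, and 21 of these were higher by 2-fold or more and none lower, with a median of 1.52. Mbp, myelin basic protein, had 1651 against 410 CPM (2.01, 1.97 to 2.05), Mobp 297 against 59.8 CPM (2.31), Mag 289 against 70.1 CPM (2.04) and Mog 209 against 54.2 CPM (1.94). Control levels of Mbp (347 CPM), Mobp (42.8 CPM), Mag (65.7 CPM) and Mog (55.2 CPM) were near those of the p300-ablated library. Ninj2 (−0.44) and Pllp (−0.11) were the members below 0.

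The 16 ranked genes of cholesterol synthesis, which supplies the lipid of myelin membranes, did not follow the myelin genes. None was past 2-fold, the median was 0.02, and Srebf2, which encodes the factor that switches on this pathway, was the lowest at −0.18. With 5.57% of all ranked genes past 2-fold, the count of this list cannot be told from that share.

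Precursor genes showed the reverse. Of 22 OPC genes none was above 0 and 9 were lower by 2-fold or more in the CBP-ablated library, with a median of −0.79. Over all ranked genes 2.57% were 2-fold lower. Cspg4, the NG2 proteoglycan, had 37.1 against 122 CPM (log2 ratio −1.72, −1.86 to −1.58), and Pdgfra, the receptor through which PDGF keeps precursors dividing, had 199 against 448 CPM (−1.17, −1.24 to −1.11). Cacng4, a subunit of AMPA receptors, had 175 against 551 CPM (−1.65), and Xylt1, Nxph1, Vcan and Dscam had ratios from −1.26 to −1.03. Bcan (125 against 131 CPM, −0.07) was the member nearest to 0. The 6 genes by which the study described an immature neuron-like cluster were all lower by 2-fold or more (median −1.19), from Kcnj6 to Nell2 (147 against 296 CPM, −1.01). That list was chosen by the study on these libraries, and its direction is no independent evidence.

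**Figure D2:**
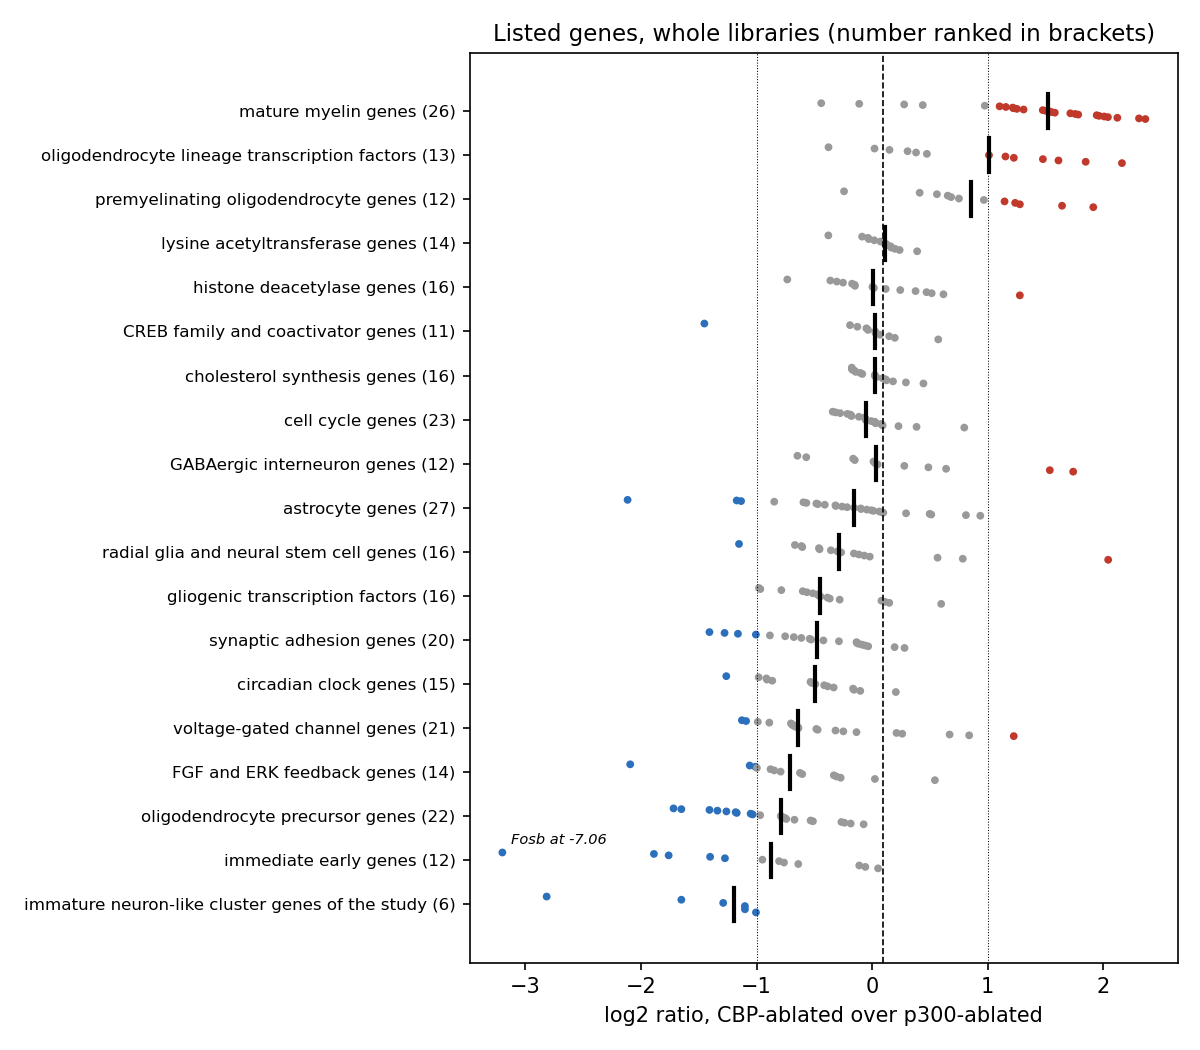
Log2 ratio of CBP-ablated over p300-ablated in the whole libraries for each listed gene that was ranked, 1 point per gene, with the list median as a bar, the median of all genes as a dashed line and 2-fold as dotted lines. Myelin genes lie furthest to the right with a median of 1.52, and the genes of an immature neuron-like cluster furthest to the left with a median of −1.19, with Fosb drawn at the left edge.

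Astrocyte genes as a list differed little between the libraries. Of 27 ranked members none was 2-fold higher and 3 were 2-fold lower without CBP (median −0.16). Gpc5, a glypican, had 213 CPM without CBP and 922 CPM without p300 (log2 ratio −2.12, −2.18 to −2.06), both below the 2382 CPM of the control. The glutamate transporter gene Slc1a2 had 67.7 against 153 CPM (−1.17). Gfap, the intermediate filament of astrocytes, had 152 against 86.7 CPM (0.81), S100b had 28.8 against 15.0 CPM (0.94) and the water channel gene Aqp4 125 against 124 CPM (0.01). The members therefore pointed both ways. Of 16 gliogenic transcription factor genes none passed 2-fold (median −0.45), with Nfia, which starts gliogenesis, at 1114 against 1544 CPM (−0.47). Among 16 radial glia and stem cell genes Prom1, the surface marker CD133, was 2-fold higher (33.2 against 8.05 CPM, 2.04), and the median was −0.28. None of 23 cell cycle genes passed 2-fold (median −0.06), and Mki67, which marks dividing cells, had 18.04 against 17.7 CPM. The counts of the gliogenic and cell cycle lists cannot be told from the 5.57% of all ranked genes past 2-fold.

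Neuronal genes were split. Of 15 pan-neuronal genes 1 was 2-fold higher and 2 were 2-fold lower (median 0.19). Syt1, the calcium sensor of transmitter release, had 1299 against 680 UMIs (102 against 36.02 CPM), whereas the splicing factor gene Rbfox1 had 286 against 934 CPM (−1.71) and the growth cone gene Gap43 had 32.9 against 87.0 CPM (−1.40). Of 12 ranked GABAergic genes 2 were 2-fold higher, Synpr (332 against 99.3 CPM) and Dlx6os1 (23.5 against 8.11 CPM). Only 3 of 11 glutamatergic genes were ranked, all above 0 with a median of 0.66, and Cpne4 was 2-fold higher (55.3 against 19.4 CPM). Gpr149, one of 4 genes that marked transitional nuclei, had 30.7 against 7.31 CPM (2.07). It was the only 1 of the 4 past 2-fold, 2 were above 0, and the median was 0.19. Over all ranked genes 5.57% passed 2-fold, and the counts of these short lists cannot be told from that share.

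Receptor, adhesion and channel genes shared by precursors and neurons had list medians mostly below 0, with the NMDA and metabotropic receptors as an exception. Of 11 AMPA, kainate and delta receptor genes none passed 2-fold (median −0.22), which cannot be told from the 5.57% of all ranked genes. Of 10 NMDA and metabotropic receptor genes Grm7 and Grin2a (1.15) were 2-fold higher and Grm5 (411 against 1004 CPM, −1.29) 2-fold lower, 7 were above 0, and the median was 0.077. Of 9 GABA-A receptor genes 1 was 2-fold higher and 2, Gabrb2 and Gabra3, were 2-fold lower (median −0.56), and of 5 muscarinic and adrenergic receptor genes Chrm2 and Chrm3 were 2-fold lower. Of 20 synaptic adhesion genes none was 2-fold higher and 4 were 2-fold lower, among them Lrrc4c and Nrxn2 (151 against 366 CPM, −1.28), with a median of −0.47. Of 21 voltage-gated channel genes 1 was higher and 2 were lower by 2-fold (median −0.64). With classes weighted equally the adhesion median was −0.12 and the channel median −0.25. The IgLON and contactin list (15 genes, 1 higher and 2 lower, median −0.27), the cadherin list (12 genes, 1 and 1, −0.39) and the semaphorin and plexin list (18 genes, 2 and 1, −0.12) held few members past 2-fold, of which Plxnb3, a semaphorin receptor of oligodendrocytes, had 143 against 52.5 CPM (1.44).

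Among signalling pathways the FGF and ERK feedback list had the lowest median. Of its 14 genes 3 were 2-fold lower without CBP and 2 were above 0 (median −0.71, but −0.087 with classes weighted equally), led by Etv4, an ETS factor downstream of FGF receptors, with 11.5 against 49.2 CPM (log2 ratio −2.09, −2.35 to −1.84), and its relative Etv5 had 57.7 against 104 CPM (−0.85). In the Wnt list the ligand genes Wnt7b (33 against 217 UMIs, −2.15) and Wnt7a (131 against 416 UMIs, −1.10) were 2-fold lower and Dkk3, of the Dickkopf family, 2-fold higher, with a median of −0.15 over 17 genes. In the BMP list the ligands went opposite ways, Bmp4 at 1.64 and Bmp7 at −2.13 (5.02 against 22.0 CPM), and the inhibitor gene Smad7 had 140 against 52.6 CPM (1.42), with a median of −0.15 over 14 genes. Over all ranked genes 3.0% were higher and 2.57% lower by 2-fold. Counts in lists this short are not read as results about the lists.

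Hhip, which sequesters Hedgehog ligands, was the only 1 of 9 Hedgehog pathway genes past 2-fold (35.2 against 7.58 CPM, 2.22). In the Notch list the ligand gene Jag1 (−1.36) and the target Hey2 (−1.08) were 2-fold lower among 13 genes (median 0.00). Among 8 neuregulin and ErbB genes the receptor gene Erbb3 was 2-fold higher (34.04 against 15.9 CPM) and the ligand gene Nrg3 2-fold lower (246 against 497 CPM). None of 8 genes of the LIF and STAT3 route, which drives astrocyte genes, passed 2-fold (median −0.29). In so short a list this cannot be told from the 5.57% of all ranked genes. Of 21 heparan sulfate genes 4 were 2-fold lower, Ndst3, Gpc5, Sdc3 and Sulf1, and Ndst4 was 2-fold higher (18.8 against 7.05 CPM, 1.42). Of 17 collagen and laminin genes Col9a1 alone passed 2-fold, and of 11 forebrain regional genes 2 were 2-fold lower, among them Emx2 (29 against 105 UMIs, −1.29). The counts of these short lists are likewise not read as results about the lists.

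Few genes of the machinery to which CBP and p300 belong passed 2-fold, as did few of all ranked genes (5.57%). Counts in lists this short cannot be told from that share. None of 14 lysine acetyltransferase genes passed 2-fold (median 0.11), with Kat2a at 0.39 the highest and Ncoa1 at −0.38 the lowest. Of 16 deacetylase genes Sirt2, which is also a premyelinating gene, was 2-fold higher (356 against 147 CPM, 1.28), and the median was 0.01. Of 11 genes of the CREB family and its coactivators Creb3l1 was 2-fold lower at low counts (20 against 81 UMIs), and the median was 0.03.

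Immediate early genes, which neurons and glia switch on within minutes of stimulation, were lower in the CBP-ablated library. Of 17 listed genes 12 were ranked, 5 of them were 2-fold lower and none 2-fold higher, and the median was −0.88. Over all ranked genes 2.57% were 2-fold lower and 3.0% 2-fold higher. Fosb, a subunit of the AP-1 factor, at chr7:19302696-19310051 (minus strand), had 1 UMI in the CBP-ablated library, 197 UMIs (10.4 CPM) in the p300-ablated library and 23 UMIs (1.41 CPM) in the control, a log2 ratio of −7.06 whose interval runs from −12.37 to −4.56 because of the single UMI. Its partner gene Fos had 17.0 against 57.7 CPM (−1.76, −1.98 to −1.55), with 24.1 CPM in the control. The zinc finger factor gene Egr1 had 13.0 against 48.2 CPM (−1.89, −2.14 to −1.65), with 17.8 CPM in the control, and Junb had 3.92 against 9.48 CPM (−1.27). Control levels of Fos and Egr1 were thus nearer to the CBP-ablated library. Jun (−0.81) and Nr4a1 (−0.95) lay short of 2-fold, while Homer1 (−0.11) and Jund (0.05) were near 0. The predicted gene Gm26802, next to Fosb on the same strand, had 0 against 62 UMIs, at least 13.96-fold lower without CBP, whereas the neighbouring Rtn2 had a log2 ratio of 0.01.

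The promoters of 4 immediate early genes are shown because CREB binds such promoters and CBP is its coactivator. Each window runs from 250 bases before to 50 bases after the transcription start, from RefSeq on GRCm38.p6, in the direction of transcription, with TGACGTCA (the palindromic cyclic AMP response element) and CAGCTG (an E-box, which is its own reverse complement) in capitals. Fosb is at chr7:19309996-19310295 (minus strand), Fos at chr12:85473640-85473939 (plus strand), Junb at chr8:84978699-84978998 (minus strand) and Dusp1, a phosphatase gene of the same list, at chr17:26508423-26508722 (minus strand).
Fosb: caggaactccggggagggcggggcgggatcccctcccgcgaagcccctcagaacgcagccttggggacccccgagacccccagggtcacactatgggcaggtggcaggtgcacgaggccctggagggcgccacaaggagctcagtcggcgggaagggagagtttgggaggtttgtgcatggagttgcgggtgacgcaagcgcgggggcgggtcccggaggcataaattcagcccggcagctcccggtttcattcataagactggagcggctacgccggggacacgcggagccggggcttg
Fos: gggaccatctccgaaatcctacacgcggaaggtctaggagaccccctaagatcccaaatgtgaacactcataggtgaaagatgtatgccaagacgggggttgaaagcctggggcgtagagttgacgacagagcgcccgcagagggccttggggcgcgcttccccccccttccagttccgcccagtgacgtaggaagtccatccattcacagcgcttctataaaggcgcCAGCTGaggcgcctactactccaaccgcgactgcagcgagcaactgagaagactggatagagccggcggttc
Junb: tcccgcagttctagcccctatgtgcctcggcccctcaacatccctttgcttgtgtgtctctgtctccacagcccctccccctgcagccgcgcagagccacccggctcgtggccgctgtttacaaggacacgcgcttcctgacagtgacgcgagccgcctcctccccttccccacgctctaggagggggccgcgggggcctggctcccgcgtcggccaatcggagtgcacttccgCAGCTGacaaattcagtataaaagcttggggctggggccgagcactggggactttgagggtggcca
Dusp1: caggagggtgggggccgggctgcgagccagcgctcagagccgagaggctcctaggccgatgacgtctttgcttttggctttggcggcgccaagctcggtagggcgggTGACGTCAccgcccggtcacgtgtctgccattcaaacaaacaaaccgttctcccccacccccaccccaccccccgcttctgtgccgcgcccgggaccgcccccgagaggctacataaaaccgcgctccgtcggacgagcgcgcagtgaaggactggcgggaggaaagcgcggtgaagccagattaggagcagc

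The full palindrome was found in the Dusp1 window alone, 143 bases before the start, among the 13 listed immediate early genes with a RefSeq window. Shorter or variant forms of the element were not searched, so a window without the palindrome may still hold one. Fos and Junb held CAGCTG 22 and 16 bases before the start. A gene was counted once when any of its windows held the motif. Of all 27025 genes with a window 2.03% held the palindrome and 18.3% held CAGCTG on either strand. The palindrome was in 3.64% of ranked genes with a window. It was in 7 of 257 (2.72%) of those 2-fold higher and in 4 of 217 (1.84%) of those 2-fold lower without CBP. CAGCTG was in 1667 of 9279 ranked genes with a window, in 24.1% of those higher and in 25.3% of those lower, so its share was similar in both directions. A match is a run of letters and not a measured binding site.

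Other lists bear on the state and origin of the nuclei. Over all ranked genes 5.57% passed 2-fold, and counts in lists this short cannot be told from that share. Of 15 ranked p53 target genes none passed 2-fold (median −0.19), and of 9 stress genes Atf3 (−1.30) and Hmox1 (−1.04) were 2-fold lower without CBP. Of 15 clock genes Hlf was 2-fold lower (16.1 against 38.6 CPM, median of the list −0.49), and of 14 imprinted genes Grb10 was 2-fold lower (84 against 296 UMIs, median −0.13). Microglia genes (10 ranked, median 0.17) and endothelial and mural genes (5 of 12 ranked, median 0.57) had no member past 2-fold, and the fibroblast list had only Pdgfra and Fn1 ranked. Dnah5 was 2-fold lower among 13 ependymal genes (median −0.15), and none of 7 ranked mitochondrial genes passed 2-fold (median 0.09). Xist, expressed from the inactive X of female cells, had 1694 against 1012 CPM (log2 ratio 0.74), and after every nucleus was thinned to 1500 UMIs an Xist UMI was found in 68.7% of nuclei without CBP and 52.4% of nuclei without p300 (76.6% and 63% before thinning). Y-linked genes had ratios of −0.43 to −0.58. RNA from the inactive X was thus more frequent and Y-linked RNA less frequent without CBP, and the part of the sex of the pups in the differences above was not tested.

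Nuclei were next sorted into classes by clustering the 2 libraries together without the variable genes that differed 2-fold between them. Each of 8 clusters passed all of its class markers. NPC/OPC-like nuclei, named after a mixed cluster of the study, were marked by OPC genes and led by Pdgfra and Megf11. They made up 715 of 3017 CBP-ablated nuclei (23.7%, 95% Clopper-Pearson interval 22.2% to 25.3%) and 2263 of 4648 p300-ablated nuclei (48.7%, 47.2% to 50.1%). The difference was −25.0 percentage points (−27.1 to −22.9). This cluster also passed all 5 immature neuron markers. Oligodendrocyte-like nuclei, led by Prr5l and Mobp, made up 548 (18.2%) and 205 (4.41%), a difference of 13.8 points (12.3 to 15.3), and committed oligodendrocyte precursor-like nuclei 496 (16.4%) and 228 (4.91%), a difference of 11.5 points (10.1 to 13.0). RGC/PSC-like nuclei, with markers of radial glia and stem cells, made up 432 (14.3%) and 933 (20.1%), a difference of −5.75 points (−7.44 to −4.04).

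Other classes had similar shares or were small. Glial progenitor-like nuclei were 13.8% and 13.5%, and proliferating nuclei 5.30% and 5.29%, differences of 0.24 points (−1.31 to 1.84) and 0.01 points (−0.998 to 1.06). Neuron-like nuclei were 173 (5.73%) and 87 (1.87%), and microglia-like nuclei 78 (2.59%) and 58 (1.25%). The intervals treat nuclei as independent draws and do not hold the variation between cultures. Median depths were close in most classes, for example 5806.5 and 5924 UMIs in oligodendrocyte-like nuclei, but 1036.5 and 1812 in microglia-like nuclei.

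**Figure D3:**
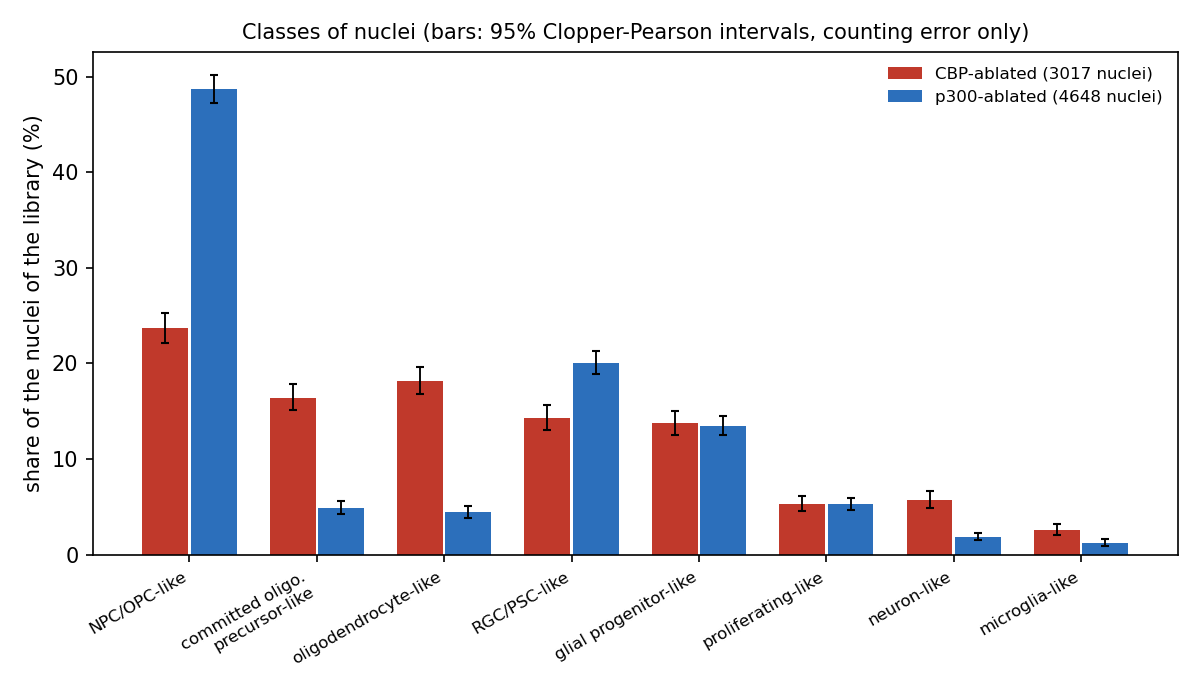
Share of the nuclei of each library in each class in percent, with 95% Clopper-Pearson intervals that cover counting error only. NPC/OPC-like nuclei were 23.7% without CBP and 48.7% without p300, while committed and oligodendrocyte-like nuclei together with neuron-like nuclei had larger shares without CBP.

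Within oligodendrocyte-like nuclei the myelin genes Mbp, Mog and Mag stood at nearly the same level in both libraries. Mbp had 5357 CPM in 548 CBP-ablated nuclei and 5399 CPM in 205 p300-ablated nuclei of the class, a log2 ratio of −0.01 (−0.05 to 0.03). Mog had 733 against 736 CPM (−0.01, −0.12 to 0.11), Mag 985 against 969 CPM (0.02, −0.07 to 0.12) and Mobp 1047 against 855 CPM (0.29, 0.19 to 0.39). Over all 26 myelin genes ranked in the class none was 2-fold higher and 1 was 2-fold lower (median −0.18), where 1.41% of 5332 genes were higher and 2.16% lower by 2-fold. With every class weighted equally in both libraries, the median of the myelin list was 0.077 and that of the lineage factors 0.16, against 1.52 and 1.01 in the whole libraries. The difference of the whole libraries in the myelin genes was therefore not present among nuclei of the class that carried most myelin RNA. Equal weighting averages CPM over classes, so for the myelin genes it mainly follows this class. Elsewhere the myelin median was 0.74 in NPC/OPC-like, 0.92 in RGC/PSC-like, 0.67 in glial progenitor-like and 0.53 in committed nuclei. The lineage factor medians there were 0.60, 0.34, 1.32 and 0.18 in the same order. Mbp and Mobp were higher without CBP in microglia-like nuclei too. The myelin medians of these other classes are therefore not read as expression by their nuclei.

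Other genes did differ between oligodendrocyte-like nuclei. Shisal1 (44.1 against 4.19 CPM, log2 ratio 3.39, 2.14 to 5.04), Zfp804a (59.0 against 6.71 CPM, 3.14, 2.13 to 4.37), Egfem1 (2.73) and Dct (2.71), the dopachrome tautomerase of pigment synthesis, were higher without CBP. Grm7 had 2725 against 882 CPM (1.63, 1.53 to 1.72). Fgf1, a growth factor, had 24.5 against 116 CPM (−2.24, −2.66 to −1.83), and the signalling gene Rasgrp3 (−2.56), Megf6 (−2.53) and the incretin receptor gene Gipr (−2.37) were lower without CBP.

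A finer clustering divided these classes unevenly. A cluster led by Gm32531, Ddc and Lpar1 held 246 CBP-ablated nuclei (8.15% of the library) and 37 p300-ablated nuclei (0.796%), and it carried 46.0% of all CBP-ablated Grm7 UMIs. Inside this cluster Grm7 had 5506 against 4494 CPM. In the cluster led by Prr5l and Sec14l5, with most other oligodendrocyte-like nuclei, it had 967 against 360 CPM, and in the main committed cluster 1718 against 891 CPM.

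In committed oligodendrocyte precursor-like nuclei 0.918% of 4577 genes were 2-fold higher and 2.23% 2-fold lower without CBP. Shisa9, an auxiliary subunit of AMPA receptors, had 90.2 against 618 CPM (log2 ratio −2.78, −3.01 to −2.55), Gap43 had 62.3 against 248 CPM (−1.99), and the potassium channel partners Kcnip1 (−2.38) and Kcnip3 (−2.49) were lower. Dach2, a transcription cofactor gene, had 510 against 106 CPM (2.27, 1.99 to 2.56), and Septin11 had 46.0 against 5.42 CPM (3.08). Of 18 OPC genes 5 were 2-fold lower here and none was above 0 (median −0.62), while the lineage factors (median 0.18 over 11 genes) had no member past 2-fold. Committed nuclei of the CBP-ablated library thus had lower levels of precursor genes than those of the p300-ablated library, but not they alone. The OPC median was −0.56 in RGC/PSC-like, −0.54 in glial progenitor-like and −0.55 in microglia-like nuclei. In neuron-like nuclei it was 0.10.

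NPC/OPC-like nuclei differed in 1.54% of 8197 genes towards CBP-ablated and 2.82% towards p300-ablated. Pdgfra had 771 against 821 CPM (log2 ratio −0.09, −0.16 to −0.02), so the class carried its leading receptor at nearly one level, and 420 of 700 and 1377 of 2213 of its nuclei thinned to 1500 UMIs had a Pdgfra UMI (561 of 715 and 1916 of 2263 before thinning), against 3 of 25 and 5 of 34 microglia-like nuclei, which should lack it. Of 22 OPC genes only 1 was 2-fold lower here (median −0.36). Of 15 mature myelin genes 6 were 2-fold higher and 1 was 2-fold lower (median 0.74). Among them Mag had 66 against 38 UMIs (2.65). Mbp and Mobp were also higher without CBP in microglia-like nuclei, which do not make myelin. The myelin counts of NPC/OPC-like nuclei are therefore not read as expression by those nuclei. Of 11 lineage factors 4 were 2-fold higher and none was 2-fold lower (median 0.60). Other genes differed strongly. Gpc5 had 266 against 1421 CPM (−2.42, −2.53 to −2.30), Alk 53.3 against 328 CPM (−2.62, −2.89 to −2.37), Ndst3 14.5 against 191 CPM (−3.72, −4.25 to −3.24) and Kcnj6 14.5 against 90.1 CPM (−2.64). Htra1, a secreted protease, had 3 against 135 UMIs (−3.64), and Chst8, a sulfotransferase, 12 against 414 UMIs (−3.26). Syt1 had 228 against 39.6 CPM (2.52, 2.33 to 2.72) and Gpr149 105 against 11.8 CPM (3.16, 2.82 to 3.50).

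At finer resolution this class was made of different nuclei in the 2 libraries. A cluster led by Gpr149 and Myo5b held 573 CBP-ablated and 692 p300-ablated nuclei. A cluster led by Tmem255b, Unc13c and Alk held 93 and 1122 (3.08% and 24.1% of the libraries), and it carried 49.0% of all p300-ablated Alk UMIs. The third, led by Kcnj6 and Unc5d, held 55 and 481 (1.82% and 10.3%) and carried 49.7% of all p300-ablated Kcnj6 UMIs. It passed all 5 immature neuron markers and was named immature neuron-like at this resolution, a difference of −8.53 points (−9.53 to −7.52). Both genes were also lower without CBP inside these clusters. In the order given, Alk had 24.4 against 212, 190 against 406 and 67.6 against 257 CPM. Kcnj6 had 6.89 against 49.5, 8.27 against 48.5 and 91.8 against 231 CPM.

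Gpc5, Alk and Ndst3 showed the same direction in proliferating nuclei, at 216 against 1252 CPM (log2 ratio −2.54), 65.9 against 445 CPM (−2.76) and 31.5 against 187 CPM (−2.57), where 1.3% of 3311 genes were higher and 2.54% lower by 2-fold. In glial progenitor-like nuclei Gpc5 had 504 against 731 CPM (−0.53, −0.66 to −0.41) and Slc1a2 had 348 against 302 CPM (0.20, 0.04 to 0.37). The lower whole-library level of these 2 astrocyte genes without CBP was thus far larger in NPC/OPC-like and proliferating nuclei than in the class that shares most genes with astrocytes. Of 25 astrocyte genes ranked in glial progenitor-like nuclei 1 was 2-fold higher and none lower (median −0.01).

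**Figure D4:**
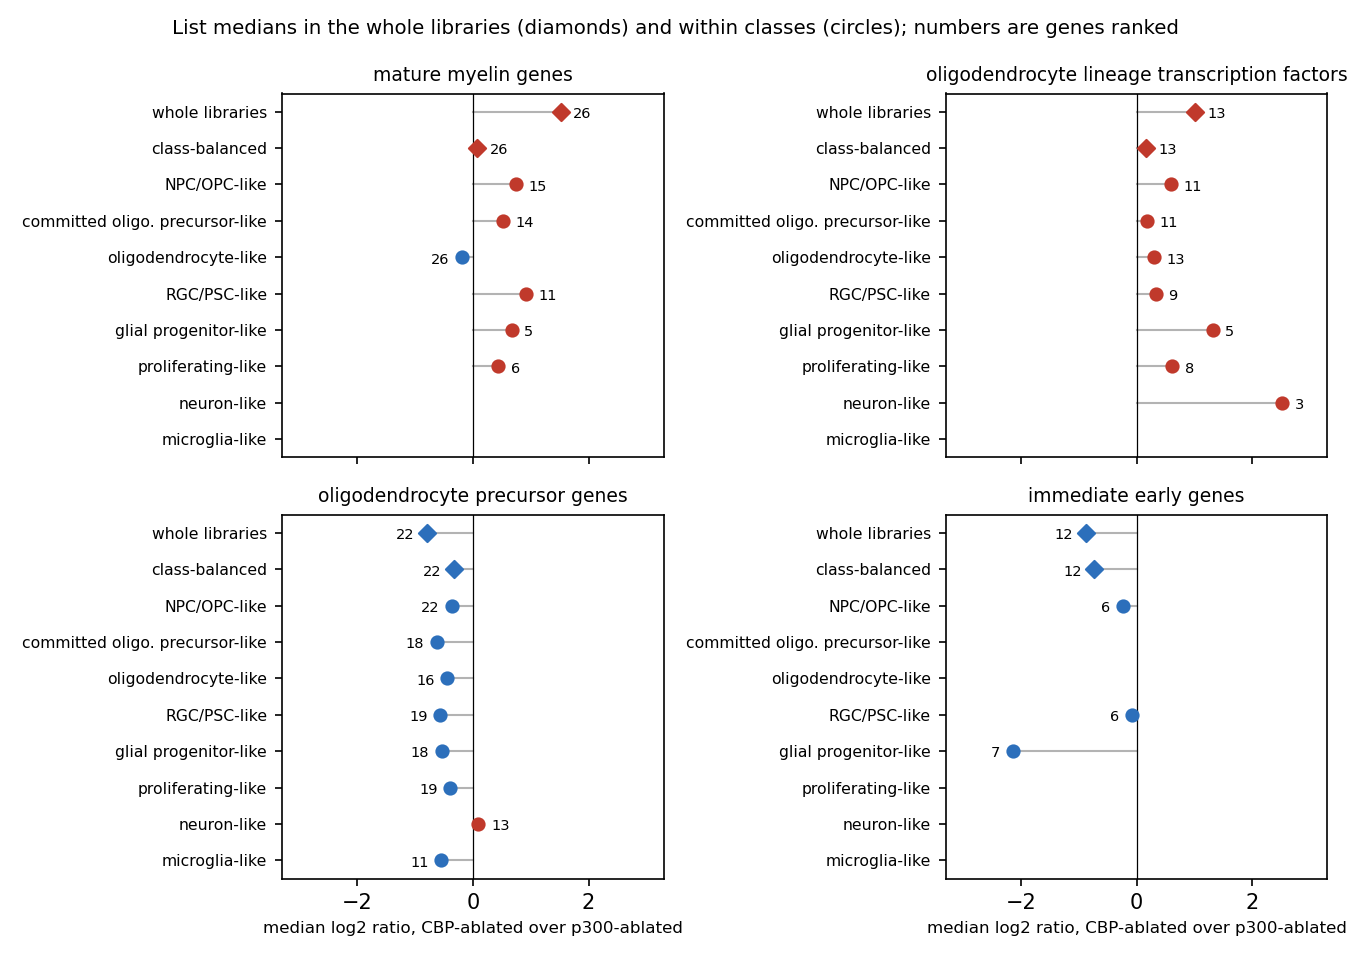
Median log2 ratio of CBP-ablated over p300-ablated of 4 gene lists in the whole libraries, with classes weighted equally (diamonds) and within each class of nuclei (circles), with the number of genes ranked beside each point and no point where fewer than 3 were ranked. The myelin median falls from 1.52 in the whole libraries to −0.18 within oligodendrocyte-like nuclei, while the immediate early median is lowest, at −2.14, in glial progenitor-like nuclei.

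The immediate early genes differed most within glial progenitor-like nuclei, a class of nearly equal share in both libraries, where 0.542% of 5718 genes were 2-fold higher and 1.15% 2-fold lower without CBP. Of 7 immediate early genes ranked there 5 were 2-fold lower and none higher (median −2.14). Fos had 29.7 against 205 CPM (46 and 463 UMIs, log2 ratio −2.79, −3.26 to −2.35), Jun 43.9 against 163 CPM (−1.89), Egr1 10.98 against 66.5 CPM (−2.60) and Junb 9.04 against 39.9 CPM (−2.14). Fosb had 0 against 150 UMIs, at least 34.3-fold lower than in the p300-ablated nuclei. The stress factor gene Atf3 had 4 against 118 UMIs (−4.34), the GTPase gene Gem 9 against 100 UMIs (−2.93) and Dgkg, a diacylglycerol kinase, 14.9 against 117 CPM (−2.98). Elsewhere the list was closer, with medians of −0.24 in NPC/OPC-like nuclei (2 of 6 genes 2-fold lower) and −0.08 in RGC/PSC-like nuclei (none of 6). Fos and Egr1 were nevertheless past 2-fold in the same direction in 6 of the 7 classes compared.

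Much of the RNA of some of these genes came from few nuclei. At finer resolution a cluster led by Fosb, Gm26802, Dgkg, Klf4 and Atf3 held 33 CBP-ablated nuclei (1.09%) and 147 p300-ablated nuclei (3.16%). It passed 4 of 6 astrocyte and 4 of 7 glial progenitor markers, so the naming rule called it astrocyte. It contained 73.6% of the Fosb UMIs of the p300-ablated library, 59.1% of its Atf3, 47.5% of its Junb and 37.6% of its Fos UMIs, but only 15.5% of its Egr1 UMIs. Inside it Atf3 had 150 against 207 CPM and Junb 97.2 against 154 CPM. Fos had 150 against 743 CPM, Egr1 26.5 against 255 CPM and Gem 17.7 against 149 CPM. This cluster held 17 CBP-ablated Atf3 UMIs and the glial progenitor-like class 4, so some of its CBP-ablated nuclei lay in another class. The cluster led by Tmem255b, Unc13c and Alk contained 30.9% of the Egr1 UMIs of the p300-ablated library. After thinning to 1500 UMIs, Fos was detected in 2.12% of nuclei without CBP and 6.20% without p300, and in 3.41% and 14.5% of glial progenitor-like nuclei, against 6 of 547 and 10 of 200 oligodendrocyte-like nuclei. Before thinning Fos was detected in 5.54% and 12.1% of all nuclei. No class is known to lack these genes, so a background share cannot be given. Fosb was detected in none of 411 thinned CBP-ablated glial progenitor-like nuclei, which allows a share of nuclei with a UMI of up to 0.730% (3 counts of the total, a limit on detection at this depth and not on expression), and in 39 of 612 (6.37%) p300-ablated ones, against 0 of 415 and 59 of 628 before thinning.

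**Figure D5:**
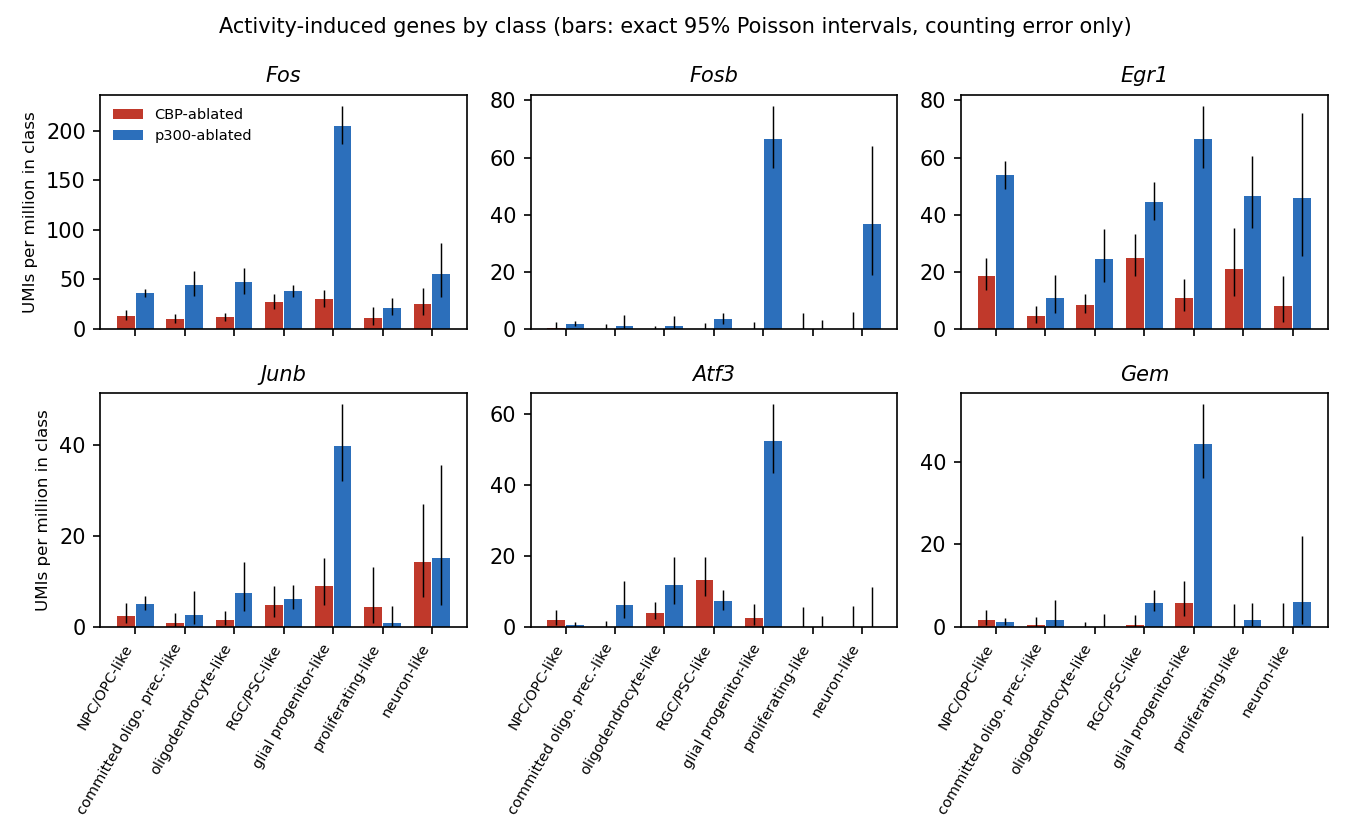
Level of 6 activity-induced genes in CPM within 7 classes of nuclei, without the microglia-like class, with exact 95% Poisson intervals that cover counting error only. Of the classes drawn, Fos, Fosb, Junb, Atf3 and Gem stand highest in glial progenitor-like nuclei of the p300-ablated library, at 205 CPM for Fos, whereas Atf3 had 132 CPM (21 UMIs) in the microglia-like nuclei not drawn. Egr1 is higher in the p300-ablated library in every class drawn.

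RGC/PSC-like nuclei differed in few genes, with 0.714% of 6861 genes 2-fold higher and 1.06% lower without CBP. Ccdc175 led at 53.7 against 1.81 CPM (log2 ratio 4.89), and Rbfox1 had 68.0 against 422 CPM (−2.63, −2.90 to −2.37). This cluster held 101 called doublets, of 73 called without CBP and 173 without p300. Those 2 totals were set by the number of nuclei in each library. The own threshold of Scrublet, the scoring tool, called 119 without CBP and 88 without p300. In neuron-like nuclei, where 1.73% of 1734 genes were higher and 1.85% lower, the follistatin relative Fstl4 (127 against 598 CPM, −2.24) and the channel gene Trpm3 (184 against 821 CPM, −2.16) were lower without CBP. The myelin and oligodendrocyte genes Mbp (333 against 51.9 CPM, 2.68) and St18 (198 against 30.5 CPM, 2.70) were higher in them.

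Mbp and Mobp were also higher without CBP in every class outside the oligodendrocyte-like nuclei. Mbp had 191 against 27.5 CPM in glial progenitor-like, 221 against 46.4 CPM in RGC/PSC-like and 393 against 126 CPM in microglia-like nuclei, which do not make myelin. Mobp had 78 against 13, 90 against 26 and 7 against 0 UMIs in the same classes. In thinned nuclei Mbp was detected in 14.4% and 2.45% of glial progenitor-like and in 28.0% and 20.6% of the 25 and 34 microglia-like nuclei deep enough, against 97.4% and 96.5% of oligodendrocyte-like nuclei, so the share in glial progenitor-like nuclei was below that of microglia-like nuclei, whose thinned nuclei are few. Before thinning the shares were 30.1% and 6.53%, 34.6% and 27.6%, and 99.3% and 99.5%. Mbp levels outside the lineage are therefore not read as expression by those nuclei. In microglia-like nuclei, with 2.58% of 466 genes higher and 2.58% lower, Tmeff2 and Nkain2, which led the CPM differences of the whole libraries, were likewise 2-fold higher, and the myeloid genes Plek (12 against 94 UMIs, −2.53) and Gpnmb (27 against 128 UMIs, −1.80) were lower without CBP.

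Finally, genes were counted that differed in the same direction across the classes. Of 7550 genes with 20 or more UMIs in at least 6 classes, 10 were higher and 5 were lower without CBP by 2-fold or more in at least 6 classes. Those higher included Dynlt1b, Dynlt1a, Tmem181a, Tmem222 (20.7 against 6.67 CPM in the whole libraries), Col14a1 (64.8 against 29.8 CPM), 9630013A20Rik, Grm7 and Mbp. Those lower were Egr1, Fos, Rbfox1, Tmem132d (19.8 against 63.3 CPM) and Mir670hg (25.9 against 72.1 CPM). Rbfox1 lies within 5 Mb of Crebbp on chromosome 16 and was past 2-fold in 7 of 8 classes. These genes differed within classes, but Mbp in glial progenitor-like nuclei was below the share of microglia-like nuclei with a UMI. Grm7 likewise had 36 against 5 UMIs in microglia-like nuclei. The part of the shares of the classes in these differences was not tested.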

How the data were processed

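The authors deposited, for each library, a matrix of raw counts: UMIs per gene and nucleus from droplet snRNA-seq. Per the labels and the methods of the study, reads were checked with FastQC 0.11.9 and aligned and counted over exons and introns on the mouse genome GRCm38 (mm10) with Cell Ranger 3.1, and the study then used Seurat 2.3.4. Nuclei were filtered before deposit, the fewest UMIs being 501 and 502 per nucleus, and no further filter was applied here.

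UMIs were summed per library and gene (Python 3.11.15, numpy 2.4.6, pandas 2.3.3, scipy 1.17.1). A ratio was ranked when both libraries together had 100 or more UMIs, and 2-fold or more was counted. Intervals at 95% were exact conditional binomial for ratios, Clopper-Pearson for shares, Newcombe for differences of shares and exact Poisson for levels, and cover counting error only. With 1 library per genotype no test was made.

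Classes came from clustering both libraries together (R 4.3.3, Seurat 5.3.0, 1000 variable genes per library without those 2-fold apart between the libraries, 20 components, 30 neighbours, resolution 0.6). A cluster was named when at least 60% and at least 3 of the fixed markers were in 10% of its nuclei and 2-fold above other nuclei. Classes with 100000 UMIs in each library were ranked, and classes were counted for a gene when it had 20 or more UMIs there. Doublets were scored with Scrublet (scanpy 1.11.5) at 0.8% per 1000 nuclei, kept, and left out as an alternative. Shares of nuclei with a UMI were taken after thinning to 1500 UMIs, which kept 2922 and 4513 nuclei.

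The members, gene lists and markers were chosen with earlier results of these data known. Named genes were the targeted genes, list members, the 15 largest and 15 smallest ratios, the 10 largest and 10 smallest CPM differences and the 5 largest and 5 smallest ratios of each class. Within these, genes furthest from 0 or with most UMIs were described, and some are not reported here. The neighbours of leading genes, the genes that differed in at least 6 classes and the clusters of the finer resolution were singled out after their values were seen. The computation was tested on simulated data. Alternatives were other minimums, centring, weighting of nuclei and classes, and other clusterings.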

Additional observations from a re-analysis of the deposited data

Results flagged for a closer look

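A few genes were past 2-fold in opposite directions in different classes of nuclei. None of these differences between classes was tested, since each class has 1 library per genotype. Airn, the antisense RNA of the imprinted Igf2r locus, had a log2 ratio of CBP-ablated over p300-ablated of 1.54 in oligodendrocyte-like nuclei (149 against 19 UMIs) and of −1.02 in glial progenitor-like nuclei (143 against 423 UMIs). The cadherin gene Cdh11 had a log2 ratio of 1.196 in oligodendrocyte-like nuclei (860 against 139 UMIs) and of −1.02 in neuron-like nuclei (52 against 55 UMIs). Nrg1, a ligand of ErbB receptors, stood at 1.79 in neuron-like nuclei (510 against 77 UMIs) and at −1.87 in committed oligodendrocyte precursor-like nuclei (542 against 969 UMIs). Sparcl1, a secreted matrix protein of astrocytes, stood at 1.17 in glial progenitor-like nuclei (357 against 232 UMIs) and at −1.89 in NPC/OPC-like nuclei (10 against 134 UMIs). Synpr, a synaptic vesicle protein gene, stood at 1.56 in RGC/PSC-like nuclei (86 against 60 UMIs) and at −1.14 in committed oligodendrocyte precursor-like nuclei (208 against 224 UMIs).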

How the results depend on the processing

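Of 126 alternative values, 75 stayed within the interval or within 1.5 times of the reported value, 51 moved and 0 of the values that were called changed sign. The counts of genes 2-fold higher and lower without CBP were 191 and 165 at a minimum of 500 UMIs, 1782 and 1400 with 1 UMI in each library as the only minimum, 166 and 166 with classes weighted equally, and 192 and 132 without oligodendrocyte-like and committed nuclei, an alternative chosen after seeing the data.

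The OPC and astrocyte medians were −0.88 and −0.25 when ratios were centred on the median of all genes, and −0.67 and −0.11 as means of CPM per nucleus. With classes weighted equally the medians were 0.16 for lineage transcription factors, 0.21 for premyelinating, 0.077 for myelin, −0.33 for OPC, 0.018 for astrocyte and −0.46 for immature neuron-like cluster genes. Without oligodendrocyte-like and committed nuclei they were 0.10, 0.44, 0.83, −0.73, 0.26 and −0.74, and −0.60 for immediate early genes. The FGF and ERK feedback, synaptic adhesion and voltage-gated channel medians were −0.087, −0.12 and −0.25 with equal weights and −0.29, −0.28 and −0.26 without those nuclei. The astrocyte median thus lay on the other side of 0 in both of these alternatives.

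Differences of shares in points were as follows with all variable genes, at resolution 1.2 and after thinning before clustering: 11.9, 6.76 and 10.9 for oligodendrocyte-like, 13.8, 18.2 and 15.3 for committed, and −28.3, −17.0 and −27.8 for NPC/OPC-like nuclei. The last was −19.8 without called doublets, and RGC/PSC-like nuclei differed by −3.28 at resolution 1.2. At that resolution the cluster led by Gm32531, Ddc and Lpar1 held 246 and 37 nuclei. It passed 4 of 6 committed and 4 of 6 oligodendrocyte markers, and the order of the marker lists placed it with the committed nuclei. With classes from all variable genes, where the NPC/OPC-like class held 92 CBP-ablated nuclei, OPC medians were −0.79 in committed and −0.15 in NPC/OPC-like nuclei. The myelin median in NPC/OPC-like nuclei was then 0.091 over 9 genes, against 0.74 over 15 genes in the main clustering. In some clusterings a cluster that passed all 5 immature neuron markers stood apart from the NPC/OPC-like class. It held 55 and 481 nuclei at resolution 1.2 and 35 and 476 with all variable genes. After thinning it held 35 and 448 nuclei, and without doublets 25 and 307. An unnamed cluster led by Gpr149 held 615 and 412 nuclei with all variable genes and 384 and 118 after thinning. The cause of the moves in shares and medians was not tested. No paired analysis was possible because each genotype has 1 library.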
